A study of Mus musculus with 6 samples.

Results

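Transcripts of B cell progenitors, B cells, T cells and natural killer (NK) cells, 33 genes in all, were followed in the livers of newborn wild-type and Cugbp1 knockout mice. Cugbp1, today called Celf1, encodes a protein that binds RNA. The genes form a list of textbook lymphoid markers out of 29862 named genes on the array, and of several probes for a gene the brightest over the 6 arrays was used. All 33 genes were found under their current symbol, 24 with 1 probe and 9 with 2 probes. Livers were taken at 3 days of life from 3 wild-type and 3 Cugbp1 knockout mice, and their Cy3-labelled total RNA was hybridised to Agilent whole-mouse-genome arrays. The allele of the knockout, the mouse strain and the litters are not given in the sources used here, so p-values measure the spread between these 6 livers only.

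The liver is a blood-forming organ before and shortly after birth, and B cell development passes through it before it settles in the bone marrow. A B cell progenitor rearranges its immunoglobulin heavy chain gene with the RAG recombinase and then displays the new chain with a surrogate light chain, made of the products of Igll1, Vpreb1 and Vpreb2, as the pre-B cell receptor. Later the surrogate is switched off and a true light chain takes its place. T cells are made in the thymus, whereas NK cells and related innate lymphocytes reside in the liver itself. Whole liver was measured, so fewer cells of a type and less RNA per cell cannot be told apart.

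The surrogate light chain genes gave the widest spread between livers, and the sequences upstream of them are shown for that reason. Igll1 and Vpreb1 are neighbours on chromosome 16 with 0 annotated genes between them, and Vpreb2 lies on the same chromosome with 52 genes in between. The windows reach from upstream of each annotated start to just past it and are RefSeq sequence of build GRCm38.p6, written 5′ to 3′ on the gene's strand. Capitals mark CAGGTG, an E box of the kind that E2A proteins bind, or its reverse complement CACCTG.
Igll1 (chr16:16863936-16864235, minus strand): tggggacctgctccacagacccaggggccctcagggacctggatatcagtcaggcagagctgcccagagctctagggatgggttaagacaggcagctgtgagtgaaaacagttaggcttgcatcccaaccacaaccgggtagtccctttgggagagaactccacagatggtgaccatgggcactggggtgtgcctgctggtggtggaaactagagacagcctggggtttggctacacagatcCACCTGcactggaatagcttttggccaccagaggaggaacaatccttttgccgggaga
Vpreb1 (chr16:16869206-16869505, minus strand): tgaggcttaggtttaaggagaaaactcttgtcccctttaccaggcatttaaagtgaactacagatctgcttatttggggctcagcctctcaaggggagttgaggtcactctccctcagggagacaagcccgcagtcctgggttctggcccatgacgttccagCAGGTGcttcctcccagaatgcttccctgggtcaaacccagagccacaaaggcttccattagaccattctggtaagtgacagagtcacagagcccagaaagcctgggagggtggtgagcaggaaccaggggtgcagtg
Vpreb2 (chr16:17980315-17980614, plus strand): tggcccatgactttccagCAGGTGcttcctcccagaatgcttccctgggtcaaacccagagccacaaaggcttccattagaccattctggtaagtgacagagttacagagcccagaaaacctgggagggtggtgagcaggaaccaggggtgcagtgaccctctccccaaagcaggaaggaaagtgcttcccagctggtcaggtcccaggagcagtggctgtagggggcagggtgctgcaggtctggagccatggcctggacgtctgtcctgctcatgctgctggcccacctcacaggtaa
All 3 windows held 1 match, at -8, -88 and -232 from the start in the order given. CAGGTG was searched on both strands and occurs in 20.2% of the 32851 promoter windows searched. The 24 lymphoid genes that have a window have 29 in all, and 15 of these, from 13 genes, held it. The palindromic pattern CCCNNGGG, which EBF1 recognises, was in the Igll1 window, apart from the CACCTG there, and in 13.7% of all windows. Among the 29 lymphoid windows 3 held it, those of Igll1, Prf1 and Zap70, and the Vpreb1 and Vpreb2 windows did not. A match describes letters only. The Vpreb1 and Vpreb2 windows overlap over 156 bases when slid along each other, and 153 of these bases are the same (98.1%). Their CAGGTG matches fall on the same bases of this overlap. The distances of -88 and -232 thus differ because the annotated starts lie at different points of the shared sequence. Signals of such near-identical genes may be shared between their probes. Vpreb1 and Vpreb2 are listed as 2 genes in the counts here but may not be independent measurements.

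Before the lymphoid genes were compared, the arrays were checked against their labels. Celf1 differed by -3.03 ± 0.22 on the log2 scale (SE, n = 3 against 3) and hepatocyte markers were above the detection level on all 6 arrays for 11 of 11 genes. The labels speak of male animals, but Xist, the transcript of the inactive X chromosome, was at 10.05 to 10.82 (log2 signal) on both arrays numbered 2 and both numbered 3, and at 1.75 and 2.10 on wild-type 1 and knockout 1. The Y-linked gene Ddx3y ran the other way, with 10.66 and 10.67 on the arrays numbered 1 and at most 1.88 on the others. By these transcripts the number 1 pair was male and the other 4 livers female, so within each genotype sex cannot be told apart from the number. Further tissue stood on some arrays. Skeletal muscle markers had a median deviation from their mean over the arrays of 3.22 on wild-type 3, 2.61 on knockout 2 and 5.46 on knockout 3, against -3.62 to -4.01 on the other 3. Exocrine pancreas markers stood at 5.24 on knockout 2 and at -0.41 or less elsewhere. Of 5 thymus epithelium genes, Foxn1 and Psmb11 were above the detection level on no array and the other 3 (Prss16, Ccl25 and Aire) on all 6, with a summed signal of 430 to 615 in wild-type and 406 to 846 in knockout. The part of thymus tissue in the T cell values was not tested.

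No lymphoid gene passed the threshold between genotypes. Of the 33 genes 32 were tested, being above the detection level on all 3 arrays of at least 1 genotype. Of these 32 genes 0 had an adjusted p under 0.05 (limma, Benjamini-Hochberg over 30924 features), where 0.00323% of all features did, and 0 had an unadjusted p under 0.05, where 2.98% did. Knockout values were lower for 22 genes and higher for 10, with a median log2 difference of -0.10 (knockout minus wild-type); over all features 50.4% were lower. Differences ran from -0.79 for Zap70 to 0.61 for Vpreb2. In 1 gene, Il7r, the genotypes did not overlap, where 6.71% of all features did not. A miss of the threshold, which Celf1 missed too, does not show that the levels were alike. The intervals in the plot of differences give what the data leave room for.

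**Figure D1:**
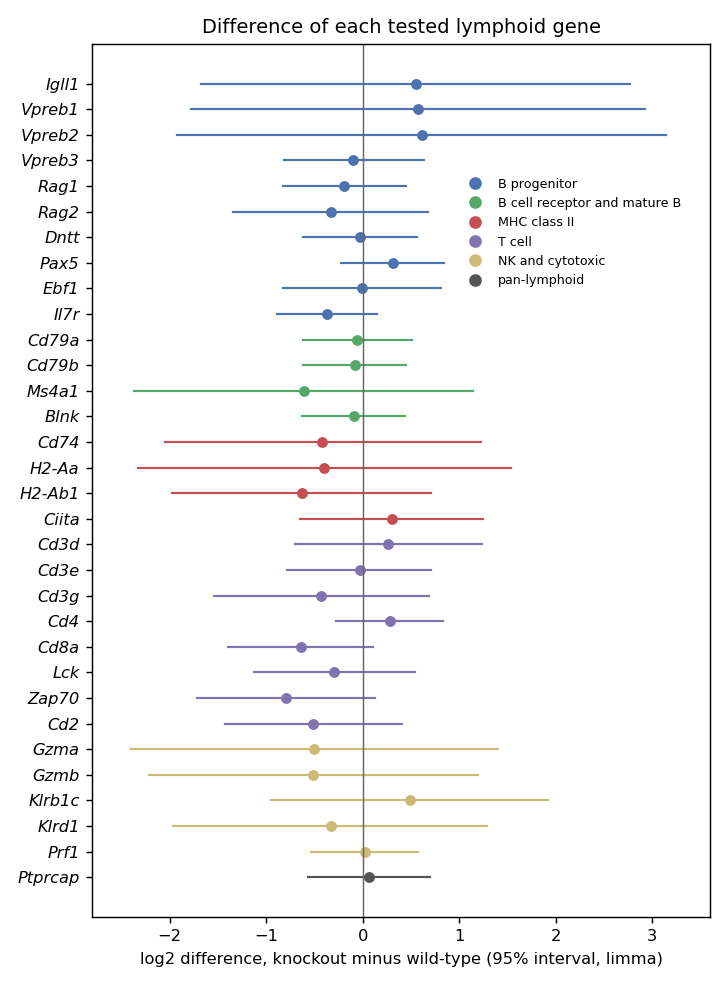
Log2 difference, knockout minus wild-type, of each of the 32 tested lymphoid genes (points) with its 95% interval from limma (lines), coloured by group; n = 3 arrays per genotype. All intervals include 0, and they are widest for Vpreb2, from -1.92 to 3.14, and its partners Igll1 and Vpreb1.

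What varied was the single liver. Between the highest and the lowest array, tested features spanned a median of 1.03 on the log2 scale, and the lymphoid genes 1.37. Within the list the span was small for B cell receptor genes other than Ms4a1. It was wide for the surrogate light chain, for MHC class II and for NK genes. By median deviation these 3 sets peaked on different wild-type arrays, at 0.93 on wild-type 1, 1.32 on wild-type 3 and 0.85 on wild-type 2. Among knockout arrays MHC class II and NK genes were both highest on knockout 2 (0.68 and 0.99) and lowest on knockout 1 (-1.09 and -0.72). The surrogate light chain was at -1.14 and 1.05 there.

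**Figure D2:**
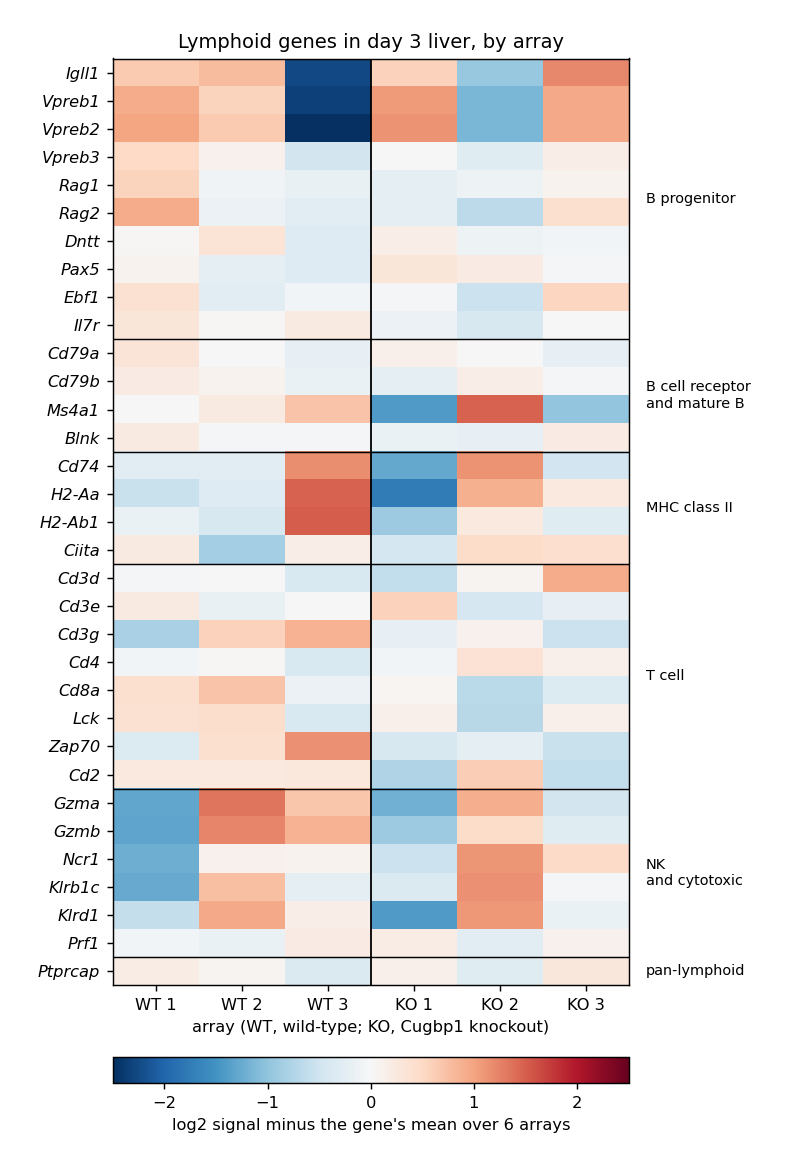
Deviation of the log2 signal from each gene's own mean over the 6 arrays, for all 33 lymphoid genes (rows, by group) and arrays (columns; WT, wild-type, KO, Cugbp1 knockout). Igll1, Vpreb1 and Vpreb2 are low on WT 3 and KO 2, Cd74, H2-Aa and H2-Ab1 are high on the same 2 arrays, and Gzma, Gzmb, Klrb1c and Klrd1 are low on both arrays numbered 1.

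B cell progenitor genes came first, beginning with the surrogate light chain. Vpreb1 encodes its variable-like part and had log2 signals of 12.16, 11.78 and 8.90 on wild-type 1, 2 and 3 and of 12.29, 10.09 and 12.17 on knockout 1, 2 and 3. Vpreb2, its near-copy, read 9.41, 9.08 and 5.84 in wild-type and 9.54, 7.28 and 9.36 in knockout. Igll1, which encodes the constant-like part also called lambda 5, read 9.07, 9.21 and 6.16 in wild-type and 8.99, 7.47 and 9.63 in knockout. One liver of each genotype was thus far below the other 2, and the genotypes overlapped. Wild-type 3 was 7.90-fold, 8.43-fold and 10.6-fold below the mean of wild-type 1 and 2 for Igll1, Vpreb1 and Vpreb2. Knockout 2 was 3.58-fold, 4.39-fold and 4.50-fold below the mean of knockout 1 and 3 for the same genes. Over all 6 arrays the 3 genes spanned 11-fold, 10.5-fold and 13.0-fold, and 3.18%, 3.43% and 2.57% of tested features spanned more.

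The genotype difference of these 3 genes depended on those livers. It was 0.55 ± 0.93 for Igll1, 0.57 ± 0.98 for Vpreb1 and 0.61 ± 1.06 for Vpreb2 (log2 ± SE, adjusted p = 1.0 by limma for each). Without wild-type 3 it turned to -0.45, -0.46 and -0.52, and without knockout 2 it was 1.16, 1.28 and 1.34. Without both, an alternative chosen after the values were seen, it was 0.17, 0.25 and 0.20. Within the pair numbered 1 knockout differed from wild-type by -0.08, 0.12 and 0.13. The pair numbered 2 gave -1.74, -1.69 and -1.81, and the pair numbered 3 gave 3.47, 3.27 and 3.52. Each pair sets 1 liver against 1, so these values carry no test.

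**Figure D3:**
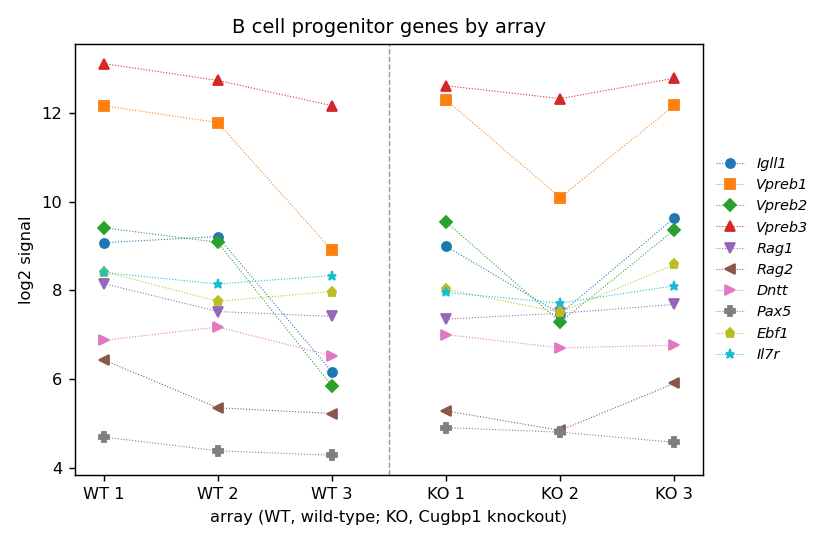
Log2 signal of the 10 B cell progenitor genes on each array; dotted lines join the points of a gene within a genotype as a guide and imply no order of the arrays. Igll1, Vpreb1 and Vpreb2 are low on WT 3 and KO 2, while the other 7 genes span less than these 3.

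The other progenitor genes moved far less. Vpreb3, a chaperone-like partner of the pre-B cell receptor, read 13.11, 12.73 and 12.16 in wild-type and 12.61, 12.32 and 12.78 in knockout. Its lowest array was again wild-type 3 in one genotype and knockout 2 in the other, but its span was 1.93-fold. Rag1 and Rag2 encode the recombinase that cuts antigen receptor genes. Rag1 read 8.15, 7.52 and 7.41 in wild-type and 7.35, 7.48 and 7.68 in knockout, a difference of -0.19 ± 0.27, and Rag2 differed by -0.33 ± 0.42. Both were highest on wild-type 1, and without that array the differences turned to 0.04 and 0.054. A further Rag1 probe differed by -0.31, and the further Rag2 probe was detected on no array. Dntt, the polymerase that adds untemplated bases to receptor joints, read 6.87, 7.17 and 6.52 in wild-type and 7.0, 6.70 and 6.76 in knockout, a span of 1.57-fold.

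Among the regulators, Ebf1 and Pax5 encode the transcription factors that commit a cell to the B lineage. Ebf1 read 8.42, 7.75 and 7.97 in wild-type and 8.02, 7.50 and 8.58 in knockout, a difference of -0.01 ± 0.34 whose sign changed with the scaling. Pax5 lay between 4.28 and 4.90 and differed by 0.31 ± 0.22; its further probe was detected on no array. Il7r, the receptor for the cytokine that feeds lymphoid progenitors, was the gene without overlap. It read 8.40, 8.14 and 8.33 in wild-type and 7.95, 7.71 and 8.10 in knockout, so the highest knockout value lay just under the lowest wild-type one. The difference was -0.37 ± 0.22 (95% interval -0.89 to 0.15, adjusted p = 1.0 by limma), and an exact permutation test, two-sided, gave p = 0.1, the least that 3 against 3 arrays can reach. It was -0.45, -0.43 and -0.22 within the pairs numbered 1, 2 and 3.

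A longer list of early B cell genes was set beside them. Of 24 genes, all tested, 0 passed between genotypes, 18 were lower and 6 higher, and the median difference was -0.11. The 3 with the smallest unadjusted p were Spib at -0.44 ± 0.26, Bach2 at 0.64 ± 0.40 and Bst1 at -0.55 ± 0.47, the first 2 encoding transcription factors and the last a stromal surface enzyme. Further probes gave 0.83 for Bach2 and -0.01 for Bst1. Over these arrays, though, 12 of the 24 had their lowest wild-type value on wild-type 3 and their lowest knockout value on knockout 2, as did 6 of the 10 progenitor genes (Igll1, Vpreb1, Vpreb2, Vpreb3, Rag2 and Dntt). Of all tested features 13.3% did. The pattern was not limited to early B cell genes. Over the 32 tested lymphoid genes 10 showed it, among them Blnk, Cd8a, Lck and Ptprcap, and so did 5 of 20 other T cell genes. This pattern was picked after the values were seen and rests on 1 liver per genotype. The reverse, with both arrays highest in their genotypes, was found for 2 of the 24, Irf8 and Ly6d, and for 12.2% of all features. Some margins were small: Ikzf1 read 9.27 and 9.24 on wild-type 2 and 3. The 12 included the transcription factor genes Tcf3, Ikzf1, Ikzf3, Irf4, Lef1, Bcl11a, Bach2, Myb and Erg. Of these, Lef1, a factor of pre-B cells and of other growing tissues, came closest to the surrogate light chain in size, with 10.12, 9.26 and 8.15 in wild-type and 10.41, 8.01 and 10.02 in knockout. Lef1 was singled out after its values were seen.

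Values of other blood cells on the same arrays were as follows. Erythroid markers deviated by a median of -1.81 on knockout 2 but by 0.28 on wild-type 3, against 0.11 to 0.80 on the other arrays. The summed signal of the 20 erythroid markers, all detected on all arrays, was 294545 to 306381 in wild-type and 98329 to 399509 in knockout. Granulocyte markers were at 0.43 on wild-type 3 and -0.32 on knockout 2. Of the 20 erythroid markers, 7 had their lowest values on wild-type 3 and knockout 2 within the genotypes, as the surrogate light chain did. Of all features 13.3% did, and of the 18 granulocyte markers 0. In the erythroid median, wild-type 3 was close to the other wild-type arrays. The part of muscle, pancreas and erythroid signal in the spread of the progenitor genes was not tested.

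Genes of the B cell receptor itself spanned little. Cd79a and Cd79b encode the signalling chains of the receptor, and Blnk an adaptor below it. Cd79b read 12.09, 11.98 and 11.73 in wild-type and 11.65, 12.06 and 11.84 in knockout. Its difference was -0.08 ± 0.22 and its span 1.36-fold, smaller than in 91.1% of features. Blnk read 10.97, 10.69 and 10.69 in wild-type and 10.58, 10.54 and 10.95 in knockout, with a span of 1.34-fold. Cd79a lay between 5.89 and 6.42, with a difference of -0.06 ± 0.24. These 3 genes had narrow intervals, -0.62 to 0.45 for Cd79b, -0.63 to 0.44 for Blnk and -0.62 to 0.51 for Cd79a.

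Ms4a1 stood apart from them. It encodes CD20, which appears late in B cell development, and read 8.33, 8.55 and 9.04 in wild-type and 6.93, 9.80 and 7.34 in knockout. Knockout 2 was the highest of the 6 arrays and knockout 1 the lowest, a span of 7.35-fold. The difference was -0.61 ± 0.74, and -0.066 without knockout 1 or -1.50 without knockout 2. Of 22 other B cell receptor signalling genes tested, 0 passed and 1, Cd72, had an unadjusted p under 0.05. Lower values were found for 17 and higher for 5, with a median of -0.16. In 4 of the 22 all knockout arrays lay below all wild-type arrays (Lyn, Plcg2, Blk and Cd72), where 3.18% of all features did. Cd72, an inhibitory coreceptor of B cells, read 10.02, 9.73 and 9.77 in wild-type and 9.59, 8.79 and 9.08 in knockout, a difference of -0.69 ± 0.27 (adjusted p = 1.0 by limma). A further Cd72 probe differed by -0.66. Cr2, the complement receptor CD21, differed by -0.59 ± 0.27, but a further probe, detected on all 6 arrays, by 0.10, so its probes disagree in sign. Tnfrsf13c, the BAFF receptor, differed by -0.48 ± 0.25 and by -0.18 on a further probe.

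MHC class II genes, which present antigen on B cells, dendritic cells and macrophages, were high where the surrogate light chain was low. Cd74, the invariant chain, read 9.03, 9.01 and 10.46 in wild-type and 8.01, 10.43 and 8.81 in knockout. H2-Aa, the alpha chain of the I-A molecule, read 6.50, 6.74 and 8.52 in wild-type and 5.31, 7.95 and 7.30 in knockout. H2-Ab1, its beta chain, read 10.96, 10.72 and 12.63 in wild-type and 10.22, 11.37 and 10.82 in knockout, and its further probe gave the same difference of -0.63. Wild-type 3 and knockout 2 were the highest of their genotypes for all 3, as in 12.2% of features, and knockout 1 was the lowest of all 6 arrays. The genotypes overlapped for each gene.

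Differences between genotypes were -0.42 ± 0.69 for Cd74, -0.40 ± 0.81 for H2-Aa and -0.63 ± 0.56 for H2-Ab1 (log2 ± SE, adjusted p = 1.0 by limma for each). Without wild-type 3 they were 0.06, 0.24 and -0.035, and without knockout 1 they were 0.12, 0.38 and -0.34. Ciita, the coactivator that switches on MHC class II genes, was close to the detection level at 3.09 to 4.40 and differed by 0.30 ± 0.40, or by -0.045 without wild-type 2. The Y box, read as CTGATTGG in mouse class II promoters and bound by NF-Y, is shown in capitals in the H2-Aa window.
H2-Aa (chr17:34287774-34288073, minus strand): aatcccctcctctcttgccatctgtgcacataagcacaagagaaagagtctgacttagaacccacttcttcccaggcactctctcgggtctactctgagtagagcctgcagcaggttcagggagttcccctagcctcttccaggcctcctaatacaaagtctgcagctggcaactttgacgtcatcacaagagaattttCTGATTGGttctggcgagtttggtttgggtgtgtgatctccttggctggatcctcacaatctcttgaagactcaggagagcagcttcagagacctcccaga
CTGATTGG was searched on both strands. It starts at -51 in this window, which holds neither of the other motifs, and occurs in 4.10% of all windows. Among the 29 windows of the 24 lymphoid genes that have one, 2 held it, those of H2-Aa and the granzyme gene Gzma. Cd74, H2-Ab1 and Ciita had no window. Of the further class II genes only H2-Eb1 was looked up, and it held a match.

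**Figure D4:**
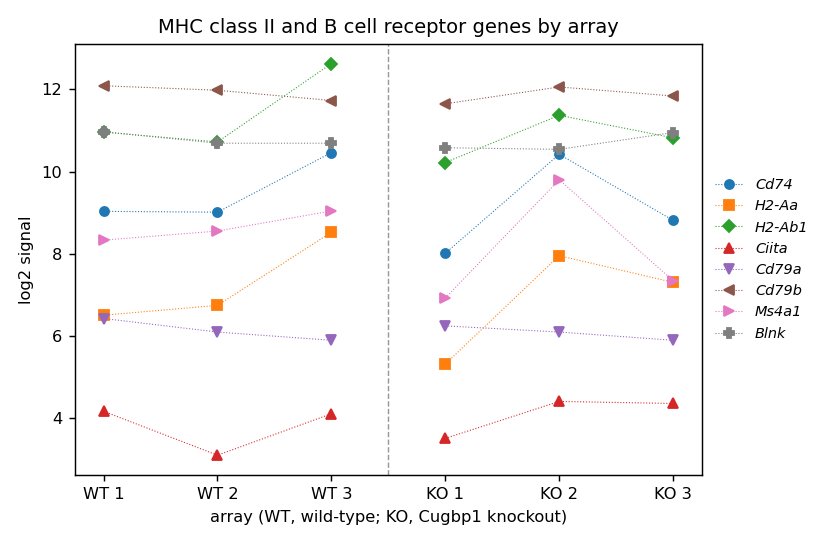
Log2 signal of the MHC class II genes and of the B cell receptor and mature B genes on each array; dotted lines join the points of a gene within a genotype as a guide and imply no order. H2-Ab1, H2-Aa and Cd74 peak on WT 3 and KO 2 with Ms4a1, while Cd79a, Cd79b and Blnk stay level.

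Other class II genes moved with them. Of 8 tested genes 5 had wild-type 3 and knockout 2 as the highest arrays of their genotypes (H2-Eb1, H2-DMa, H2-DMb1, H2-Oa and Ctss). Of all features 12.2% did, and this pattern too was picked after the values were seen. Of the 8 T cell genes of the list 3 shared it (Cd3g, Zap70 and Cd2), and 2 were lowest on these arrays (Cd8a and Lck). H2-Eb1, the beta chain of the I-E molecule, read 10.01, 9.70 and 11.73 in wild-type and 9.34, 10.73 and 10.14 in knockout. Between genotypes 0 passed, 5 were lower and 3 higher, and the smallest unadjusted p belonged to Ctss (-0.54 ± 0.45), H2-Ob (-0.25 ± 0.29) and Rfxank (-0.31 ± 0.46), with -0.42 on a further H2-Ob probe. Macrophage and Kupffer markers shared the pattern in 8 of 16 genes, among them Adgre1, Csf1r and the 3 C1q genes, with median deviations of 0.24 on wild-type 3, 0.47 on knockout 2 and -0.62 on knockout 1. Their summed signal was 72906 to 119386 in wild-type and 57606 to 125149 in knockout, and 15 of the 16 were detected on all arrays. Among dendritic cell markers 2 of 9 tested did so, and Xcr1 was detected on no array; among megakaryocyte and platelet markers 6 of 10 did. Interferon-stimulated genes were lower in knockout for 16 of 16 markers, where 50.4% of all features were. For 15 of them all knockout arrays lay below all wild-type arrays, where 3.18% of all features did. Of the 16 markers 0 had an adjusted p under 0.05 by limma, and their list was chosen with earlier results of these data known. Their summed signals were 60802 to 98537 in wild-type and 12082 to 37871 in knockout. The class II genes overlapped between the genotypes. The part of macrophages, platelets and interferon in the class II signal was not tested.

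T cell genes peaked on different arrays. Cd3d, Cd3e and Cd3g encode chains of the CD3 complex that carries the T cell receptor's signal. Cd3d read 6.84, 6.89 and 6.51 in wild-type and 6.26, 6.95 and 7.81 in knockout, with the highest value on knockout 3. Cd3e lay between 10.13 and 11.12 and was highest on knockout 1, and Cd3g between 4.87 and 6.55 and was highest on wild-type 3. The 3 chains of the complex thus peaked on 3 different arrays. Their differences were 0.26 ± 0.40, -0.03 ± 0.31 and -0.43 ± 0.47, and with 1 array left out that of Cd3g ran from -0.94 without wild-type 1 to -0.096 without wild-type 3.

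Of the kinases below the receptor, Lck read 9.99, 10.05 and 9.23 in wild-type and 9.73, 8.91 and 9.74 in knockout, and its difference of -0.30 ± 0.35 was -0.021 without knockout 2. Zap70 read 6.55, 7.30 and 8.03 in wild-type and 6.49, 6.67 and 6.33 in knockout, and its difference of -0.79 ± 0.39 had one of the smallest unadjusted p of the list (0.0817, adjusted p = 1.0 by limma). It was -0.42 without wild-type 3, and a further Zap70 probe differed by -0.32. Cd8a, a coreceptor of cytotoxic T cells, was just above the detection level on 3 wild-type and 2 knockout arrays. It thus entered the test through wild-type only, the genotype where it was higher, which limits its difference of -0.64 ± 0.31. A further Cd8a probe, detected on 1 array, differed by -0.29. Cd2, an adhesion molecule of T and NK cells, read 7.78, 7.78 and 7.79 in wild-type and 6.77, 8.14 and 6.91 in knockout, so its spread lay within the knockout livers; a further probe differed by -0.15.

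The coreceptor gene Cd4 had 2 probes that disagreed in level. The chosen one read 14.27 to 15.02 and the other 4.79 to 5.54, and they differed between genotypes by 0.28 and -0.10. Which of them reports Cd4 was not tested, and its level is not interpreted. Of 20 other T cell genes tested 0 passed, 14 were lower and 6 higher, with a median of -0.22. Gata3, a transcription factor of T cells and innate lymphocytes that other tissues also express, read 7.20, 6.64 and 7.47 in wild-type and 6.35, 5.87 and 6.10 in knockout, a difference of -1.0 ± 0.29 (unadjusted p = 0.0109, adjusted p = 1.0 by limma). Lcp2 and Cd28 followed at -0.48 ± 0.30 and -0.32 ± 0.24; a further Lcp2 probe, detected on all 6 arrays, went the other way at 0.34.

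NK and cytotoxic genes came in the same order of the livers' numbers in both genotypes. Gzma encodes granzyme A, a protease of cytotoxic granules, and read 10.96, 13.59 and 12.95 on wild-type 1, 2 and 3 and 11.05, 13.16 and 11.79 on knockout 1, 2 and 3. Gzmb, granzyme B, read 7.07, 9.61 and 9.27 in wild-type and 7.49, 8.85 and 8.09 in knockout. Both were lowest on number 1 and highest on number 2 in either genotype. From number 1 to number 2, Gzma was 6.21-fold higher in wild-type and 4.30-fold higher in knockout, and Gzmb 5.85-fold and 2.58-fold.

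The NK receptor genes kept the same order. Klrd1, which encodes CD94, read 5.28, 6.83 and 6.04 in wild-type and 4.46, 6.96 and 5.72 in knockout. Klrb1c, which encodes NK1.1, read 3.61, 5.62 and 4.65 in wild-type and 4.51, 6.01 and 4.83 in knockout; its further probe was detected on no array. Ncr1, which encodes NKp46, was above the detection level on 2 wild-type and 2 knockout arrays, the numbers 2 and 3, and was not tested. It read 2.04, 3.37 and 3.35 in wild-type and 2.73, 4.37 and 3.74 in knockout. So 4 of the 5 tested genes ran in the order 1, 3, 2 from low to high in both genotypes, as 4.26% of all features did, and Ncr1 did too. Over all tested lymphoid genes 7 of 32 had any one order in common to both genotypes, close to the 25.1% of all features. The order 1, 3, 2 was noticed in these values. Prf1, the pore-forming perforin, did not: it lay at 8.78 to 9.24 on all arrays, with a span of 1.38-fold.

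**Figure D5:**
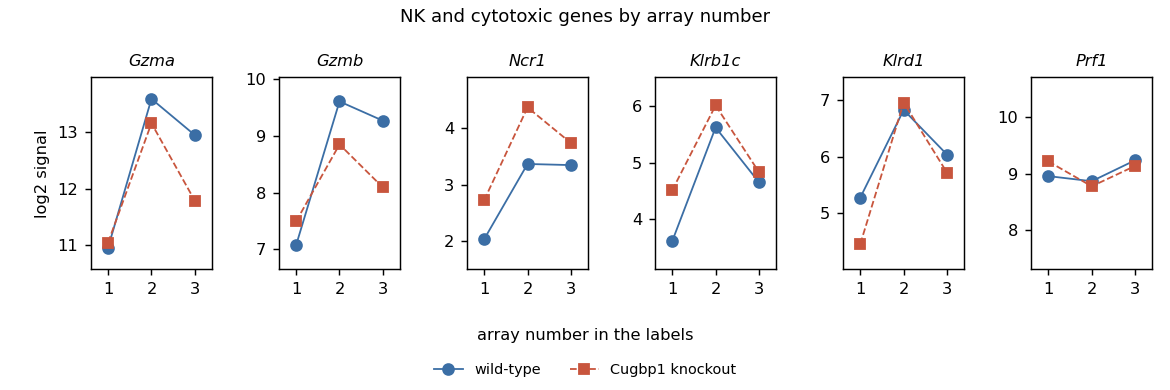
Log2 signal of the 6 NK and cytotoxic genes against the array number in the labels, for wild-type (circles, solid lines) and Cugbp1 knockout (squares, dashed lines); every panel spans the same log2 range, and lines are a guide. In both genotypes number 2 lies above number 1 for Gzma, Gzmb, Ncr1, Klrb1c and Klrd1, and Prf1 stays level.

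Between genotypes the NK genes differed by -0.50 ± 0.80 for Gzma, -0.51 ± 0.71 for Gzmb, -0.33 ± 0.68 for Klrd1, 0.49 ± 0.60 for Klrb1c and 0.02 ± 0.23 for Prf1 (adjusted p = 1.0 by limma for each). Gzmb was -0.029 without wild-type 2 and -1.30 without wild-type 1. The signs of Gzma and Klrd1 turned without wild-type 2, to 0.045 and 0.054, that of Klrd1 without knockout 1, to 0.29, and that of Klrb1c without wild-type 1, to -0.021. With the number as a block 0 of the 32 lymphoid genes passed. The other NK and innate lymphoid genes did not widen this pattern: 1 of 21 tested, the inhibitory receptor gene Klrc1, ran in the order 1, 3, 2 in both genotypes. Of the other B cell receptor signalling genes 1 of 22 did (Cd38) and of the other T cell genes 1 of 20 (Cxcr6); Klrc1, Cd38 and Cxcr6 are named because of this order. Klrc1 read 4.58, 5.99 and 5.30 in wild-type and 4.79, 6.07 and 5.09 in knockout. Number 1 held the male livers, so sex, a shared litter and other features of a number cannot be told apart for these genes.

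Of 21 other NK and innate lymphoid genes tested 0 passed, 13 were lower and 8 higher, with a median of -0.13. The smallest unadjusted p belonged to Gzmc, granzyme C, which read 6.47, 6.37 and 9.26 in wild-type and 4.14, 4.99 and 5.0 in knockout. The genotypes did not overlap, and the difference was -2.65 ± 0.79 (unadjusted p = 0.0126, adjusted p = 1.0 by limma), larger than that of any of the 32 tested members. Wild-type 3 alone was far above the rest. Fcer1g and Xcl1 followed at -0.41 ± 0.24 and -1.04 ± 0.70. Xcl1 was above the detection level on 3 wild-type but only 1 knockout array. It thus entered the test through wild-type only, and its difference is limited by that level. Ptprcap, which associates with the phosphatase CD45 on lymphocytes, differed by 0.06 ± 0.27 and lay between 10.51 and 11.15 on all arrays.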

How the data were processed

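For the 6 arrays the authors deposited intensity values on a linear scale, 55681 probes in 1 table. Per the submitters' processing notes these came from Agilent Feature Extraction, whose version, signal column and background step are not given. The deposited log2 value table was recomputed by quantile normalization and centring of each probe on its median, with at least 99.96% of probes equal within 0.01 on each array, so its scale, centring and direction are known; the medians of its columns ran from -0.011 to 0.005. Median signal was 34.5 to 48.9 and arrays correlated at 0.955 to 0.984.

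Gene names were updated through RefSeq (GRCm38.p6): 27364 probes had a current symbol, 3652 an updated one, 7479 kept their name and 17186 had none. Intensities were scaled to each array's 75th percentile, floored at 1 and transformed to log2. Detection meant a signal above the 30th percentile of the array, since no flags were at hand, and features detected on the 3 arrays of either genotype went into the test. The genotypes were compared with limma 3.58.1 under R 4.3.3 (lmFit and eBayes, two-sided, without covariates), adjusted by Benjamini-Hochberg over 30924 features at 0.05; the fit was tested on simulated data. The number of arrays limits the precision. Arrays of the same number correlated after removal of group means at 0.36, 0.26 and 0.29, so same-numbered arrays were treated as pairs in the blocked alternative; the labels name no shared litter or day.

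The members and lists were chosen with earlier results of these data known. All members are named; from each further list the 3 genes with the smallest unadjusted p are named, and others are said to have been picked by their values.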

Additional observations from a re-analysis of the deposited data

How the results depend on the processing

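Of the 33 lymphoid genes 12 kept their direction and 21 changed it under at least 1 of 18 alternatives; 0 passed the threshold under any, and the smallest adjusted p by limma over them was 0.654. Without scaling, which moved the median of all features to 0.112, the sign turned for Vpreb3 (0.017), Dntt (0.084), Ebf1 (0.10), Cd79a (0.056), Cd79b (0.030), Blnk (0.021) and Cd3e (0.082). Ebf1 was 0.0027 with quantile normalization, 0.0017 in the deposited log2 values and 0.22 with array weights; H2-Aa was 0.15 with array weights and Prf1 -0.0038 with median scaling. Leaving out wild-type 3 and knockout 2 together, added after the data were seen, turned Ebf1 (0.22) and Cd3e (0.17).

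With any 1 array left out, the difference ran for Igll1 from -0.45 to 1.16, Vpreb1 from -0.46 to 1.28, Vpreb2 from -0.52 to 1.34, Vpreb3 from -0.35 to 0.12, Rag1 from -0.33 to 0.04, Rag2 from -0.61 to 0.054, Dntt from -0.20 to 0.13, Ebf1 from -0.29 to 0.26, Cd79a from -0.18 to 0.086, Cd79b from -0.19 to 0.015. It ran for Blnk from -0.22 to 8.5e-05, Cd74 from -1.09 to 0.12, H2-Aa from -0.95 to 0.38, Ciita from -0.045 to 0.59, Cd3d from -0.14 to 0.63, Cd3e from -0.33 to 0.17, Gzma from -1.27 to 0.045, Klrb1c from -0.021 to 0.99, Klrd1 from -0.96 to 0.29, Prf1 from -0.07 to 0.15, Ptprcap from -0.10 to 0.23. Some genes kept their sign but came close to 0: Ms4a1 (-1.50 to -0.066), H2-Ab1 (-0.99 to -0.035), Gzmb (-1.30 to -0.029), Cd3g (-0.94 to -0.096) and Lck (-0.56 to -0.021). List medians changed sign for B progenitor (-0.35 to 0.15), MHC class II (-0.93 to 0.25), NK (-0.87 to 0.045) and other MHC class II genes (-0.26 to 0.20). The others kept it. The median of B cell receptor genes ran from -0.18 to -0.0032, of other early B cell genes from -0.19 to -0.0062 (without knockout 2) and of other NK genes from -0.30 (without wild-type 1) to -0.037 (without wild-type 3). The median of T cell genes ran from -0.38 to -0.20, of other T cell genes from -0.32 to -0.12 and of other B cell receptor signalling genes from -0.23 to -0.13, and the count of all features past the threshold from 0 to 1.

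The count of all features past the threshold was 1, and 2 with median scaling, a 50th percentile for detection or an intensity trend, 6 with array weights, and 0 with no filter on dim probes, with probes averaged, with the replicate number as a block or without wild-type 3 and knockout 2. Unadjusted p under 0.05 was found for 923 features in the main comparison and, in the last 4 settings, for 1478, 920, 1577 and 1675 features. With the replicate block the differences were those of the main comparison and 0 lymphoid genes passed, so no call changed. Within the pairs numbered 2 and 3, the B progenitor median was -0.45 and 0.62 and the MHC class II median 1.27 and -1.43; within pair 1, the B cell receptor median was -0.42 and the T cell median -0.16. The median of other B cell receptor signalling genes was -0.042 without scaling and -0.30 without wild-type 3 and knockout 2. That of other T cell genes was -0.11 without scaling, -0.074 with array weights and -0.059 without those 2 arrays. The cause of these shifts was not tested. Dim probes such as Ciita, Cd8a and Ncr1 lie near the detection level, where signal limits what a difference can show.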
